A study of Mus musculus with 68 samples.

Results

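Polycomb repressive complex 2 (PRC2) is described here through 10 genes, chosen by name from the tables of all 68 libraries, out of 24421 gene symbols. The 6 core genes were Ezh1, Ezh2, Eed, Suz12, Rbbp4 and Rbbp7, and the 4 accessory genes were Jarid2, Aebp2, Mtf2 and Phf19. Their levels were followed in cumulus cells (CC), in embryos made by somatic cell nuclear transfer (SCNT) and in fertilized blastocysts that had received morpholinos (MO). All 10 symbols were found in every table, and a level is the sum over all entries under a symbol of their TPM, a transcript's length-corrected share of its library.

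PRC2 methylates histone H3 at lysine 27, a mark of repressed chromatin that is laid down at developmental regulators and, in mice, at a set of maternally marked imprinted loci. EZH2 or EZH1 carries the catalytic site, EED reads the mark and stimulates the enzyme, SUZ12 holds the core together, and RBBP4 or RBBP7 binds the histone tail. Accessory subunits split the complex into a form with a Polycomb-like protein (MTF2, PHF19 or PHF1) and a form with JARID2 and AEBP2.

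The RNA was read by Smart-seq2, a method for very small amounts of polyadenylated RNA, with 10 cells per reaction per the study's methods. Of the 68 libraries, 3 were CC, the donor cell type, taken per the study's methods from oviducts of females injected with the hormone hCG. Another 53 came from SCNT embryos, made by placing cumulus nuclei into enucleated oocytes of BDF1 mice (B6D2F1 in the study's methods) that were then activated with strontium chloride. They were taken 6 h and 14 h post activation (6 hpa, 14 hpa), at the early and late 2-cell stages (E2C, L2C), at the 4-cell and 8-cell stages (4C, 8C), at the morula, and as blastocysts split into trophectoderm (TE) and inner cell mass (ICM). There were 6 libraries per stage, except 5 at 4C. The other 12 were ICM and TE of fertilized blastocysts whose C57BL/6j zygotes had been injected with an MO against Max, an MO against Mcrs1 or a random-sequence control MO, with 2 libraries for each MO in each lineage. MAX is the partner through which MYC-family proteins bind the E-box CACGTG, and MCRS1 is a subunit of chromatin complexes. The SCNT and fertilized embryos differ in strain, origin and handling, so no test was made between them. An MO acts on a transcript's translation or splicing in cells that keep their gene, and a blastocyst is only as depleted as the injected amount allows. Per the study's methods the Max and Mcrs1 MOs were injected for these libraries at concentrations that differed from each other and were below that of the control MO, so the target of an MO and its amount cannot be told apart. Nothing in the labels ties libraries to separate animals or days, so the p-values measure only the spread between these libraries, which may be technical.

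The libraries held 1.00 to 5.17 gigabases of aligned sequence, and 6177 to 11771 genes reached 1 TPM. The TPM of entries with a reference symbol summed to 30.4 to 94.4% of that of the assembled entries without a symbol. The latter alone summed to 1e+06 TPM in each library. No pair of libraries held identical values. CC libraries carried the cumulus markers (8 genes, summed level 1104 to 1406 TPM) and almost none of the oocyte markers (7 genes, at most 2.25 TPM), and 6 hpa libraries carried the reverse, at 6.45 to 13.1 and 4194 to 8159 TPM. ICM markers (6 genes) summed to 247 to 391 TPM in SCNT ICM and 73.7 to 236 TPM in SCNT TE without overlap, and TE markers (7 genes) to 2034 to 8506 and 5143 to 16191 TPM with overlap. The 7 housekeeping genes summed to 5349 to 6469 TPM in CC and 160 to 315 TPM at 6 hpa, so a level in TPM is a share of a pool whose makeup differed between stages. Libraries numbered 1 to 3 and 4 to 6 of a stage stood apart in many genes, from 24.6% of tested genes at the morula to 51.8% at 14 hpa. The SCNT ICM libraries 1 to 3 held 6177 to 6771 genes at 1 TPM and libraries 4 to 6 held 9011 to 10032. In bulk libraries of this kind, fewer cells of a type and less RNA per cell cannot be told apart.

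MAX dimers recognise CACGTG, so the 250 bases before each annotated start of the 10 genes were searched for these letters, which read the same on both strands. RefSeq (GRCm38.p6) gave 14 such windows for the 10 genes, and 1 of the 14 held the motif, against 6.02% of 32851 windows over all genes. That window was the Rbbp4 promoter at chr4:129335371-129335620 (minus strand), where the motif began 224 bases before the start. It is printed 5′ to 3′ with the motif in capitals, beside the windows of Ezh2 (chr6:47595031-47595280, minus strand), Suz12 (chr11:79992856-79993105, plus strand), Jarid2 (chr13:44730524-44730773, plus strand) and Aebp2 (chr6:140622413-140622662, plus strand), the 4 genes whose transcripts were lower after Max MO in the ICM. None of the windows of these 4 holds CACGTG, and of the 2 of Jarid2 and the 3 of Aebp2 the one at the outermost start is shown.
Rbbp4: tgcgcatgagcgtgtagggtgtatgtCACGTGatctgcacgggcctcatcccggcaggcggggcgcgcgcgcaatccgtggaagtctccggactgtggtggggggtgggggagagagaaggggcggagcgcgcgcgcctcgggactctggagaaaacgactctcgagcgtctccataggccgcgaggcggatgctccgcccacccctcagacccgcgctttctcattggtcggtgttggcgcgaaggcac
Ezh2: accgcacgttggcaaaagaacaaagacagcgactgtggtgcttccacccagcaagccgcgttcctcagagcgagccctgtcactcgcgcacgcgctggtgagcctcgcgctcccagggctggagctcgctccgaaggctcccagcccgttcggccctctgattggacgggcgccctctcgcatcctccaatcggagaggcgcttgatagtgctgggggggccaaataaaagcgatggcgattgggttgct
Suz12: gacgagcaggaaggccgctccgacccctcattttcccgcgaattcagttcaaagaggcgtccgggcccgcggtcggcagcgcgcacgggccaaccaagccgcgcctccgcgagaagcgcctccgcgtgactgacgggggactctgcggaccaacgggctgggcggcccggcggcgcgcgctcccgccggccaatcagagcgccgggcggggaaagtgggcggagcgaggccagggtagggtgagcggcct
Jarid2: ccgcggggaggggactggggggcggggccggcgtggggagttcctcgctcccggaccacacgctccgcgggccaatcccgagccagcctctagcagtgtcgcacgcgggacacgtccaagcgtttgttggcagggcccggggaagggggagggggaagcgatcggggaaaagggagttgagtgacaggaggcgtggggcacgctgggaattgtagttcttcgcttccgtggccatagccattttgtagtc
Aebp2: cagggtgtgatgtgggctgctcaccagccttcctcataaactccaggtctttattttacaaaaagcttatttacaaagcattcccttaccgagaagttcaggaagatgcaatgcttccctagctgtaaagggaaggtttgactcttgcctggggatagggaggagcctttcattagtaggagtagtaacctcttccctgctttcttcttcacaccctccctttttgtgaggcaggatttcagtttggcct
The window of Suz12 held 37 CG dinucleotides, that of Rbbp4 30, those of Ezh2 and Jarid2 23 each and that of Aebp2 1, and the median over all windows was 6. The second Jarid2 window held 22 and the other Aebp2 windows 14 and 3, and the 14 windows of the 10 genes ran from 1 to 37. A match is a description of these letters only, and the lack of one in a window says nothing about binding elsewhere.

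At 6 hpa, the level of 3 of the 4 genes that make the catalytic core was far more than 2-fold above that in CC. The 6 hpa libraries carried oocyte markers and low levels of cumulus markers, so the comparison sets an oocyte's RNA beside that of cumulus cells. RNA that the oocyte held and RNA made after the transfer cannot be told apart in it. Ezh2, Eed and Suz12 were higher in all 6 libraries at 6 hpa than in any CC library, as was so for 29.8% of all genes, while Ezh1 was not called. Of the 9 genes of the complex that could be tested, 5 were higher at 6 hpa (Ezh2, Eed, Suz12, Rbbp7, Jarid2), 1 was lower (Rbbp4) and 3 were not called (Ezh1, Aebp2, Mtf2). Over all 12084 genes tested, 61.4% were called in this comparison, 25.8% upward and 35.6% downward. A call throughout means an adjusted p under 0.05 in limma, with Benjamini-Hochberg adjustment over all genes tested, and at least 2-fold on the scale of log2(TPM + 1), a scale that understates changes of low genes. The median log2 fold change was 1.14 over the 9 genes and −0.28 over all genes.

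Ezh2 (chr6:47530274-47595030 in mm10), the main catalytic subunit of dividing cells, stood at 17.3, 22.6 and 29.5 TPM in the 3 CC libraries. At 6 hpa its level ran from 638 to 792 TPM with a median of 694 (n = 6), so no library came near the CC range. The means differed 30.4-fold, the widest span of any of the 9 genes across the 10 groups, and the log2 fold change was 4.90 ± 0.55 (SE, limma adjusted p = 2.56e-11). Ezh1 (chr11:101191115-101226463), the catalytic subunit typical of resting cells, showed 8.44 to 13.6 TPM in CC and 6.97 to 26.3 TPM at 6 hpa, and the ranges overlapped. The log2 ratio of Ezh2 to Ezh1 was thus 1.07 ± 0.44 (SD, n = 3) in CC and 5.69 ± 0.63 (SD, n = 6) at 6 hpa.

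After 6 hpa, Ezh2 was lower at each of the next 4 stages. Its lowest, median and highest levels were 426, 487 and 575 TPM at 14 hpa, 153, 253 and 350 TPM at E2C, 73.3, 92.6 and 175 TPM at L2C and 14.3, 25.3 and 35.4 TPM at 4C. At L2C a single library (replicate 2, 175 TPM) reached into the E2C range. Of these steps 2 were called, L2C against E2C at −1.28 ± 0.45 (adjusted p = 0.018) and 4C against L2C at −2.03 ± 0.47 (adjusted p = 0.00032, both limma). The L2C step was −0.72 in libraries 1 to 3 alone (adjusted p = 0.277) and −1.84 in libraries 4 to 6 alone (adjusted p = 1.25e-06), and rescaling each library to its reference genes gave −0.94 (adjusted p = 0.0963). The 4C step was −2.30 and −1.68 in the same subsets.

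From 8C onward the Ezh2 ranges overlapped at every step. They were 22.5 to 66.9 TPM at 8C and 24.5 to 72.6 TPM in morulae, then 24.9 to 308 TPM in ICM and 15.9 to 165 TPM in TE. In TE the split ran along the library numbers, with 140 to 165 TPM in libraries 1 to 3 and 15.9 to 21.7 TPM in libraries 4 to 6, and in ICM the mean was 4.91 times higher in libraries 1 to 3. Ezh2 was called higher in ICM than in CC (1.56 ± 0.55, limma adjusted p = 0.018), but the difference was 0.57 (adjusted p = 0.431) without ICM libraries 1 to 3. The part of depth or batch in this split was not tested.

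Ezh1 was low throughout and its 10 group ranges formed an unbroken chain, each overlapping its neighbour in the order of means. The lowest mean was 3.32 TPM at 8C and the highest 13.6 TPM at 6 hpa, a 4.10-fold span. The single call was 4C against L2C (−1.47 ± 0.51, limma adjusted p = 0.016), where 4C values ran from 0.222 to 11.8 TPM (median 1.2, n = 5) and L2C values from 2.05 to 13.9 TPM (median 8.03). It was −1.14 (adjusted p = 0.0811) without 4C library 1 and −1.29 (adjusted p = 0.0542) without 4C library 5, and −0.92 (adjusted p = 0.10) with the trend over transcript length removed. The genes with the most similar profile over the 10 group means were Dusp23 (r = 0.98), Arl13b and Foxo1 (both r = 0.97) for Ezh1, and Naa11, Ccdc14 and Uhrf1 (all r = 0.98) for Ezh2. These are descriptions over 10 means that share libraries and depth.

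**Figure D1:**
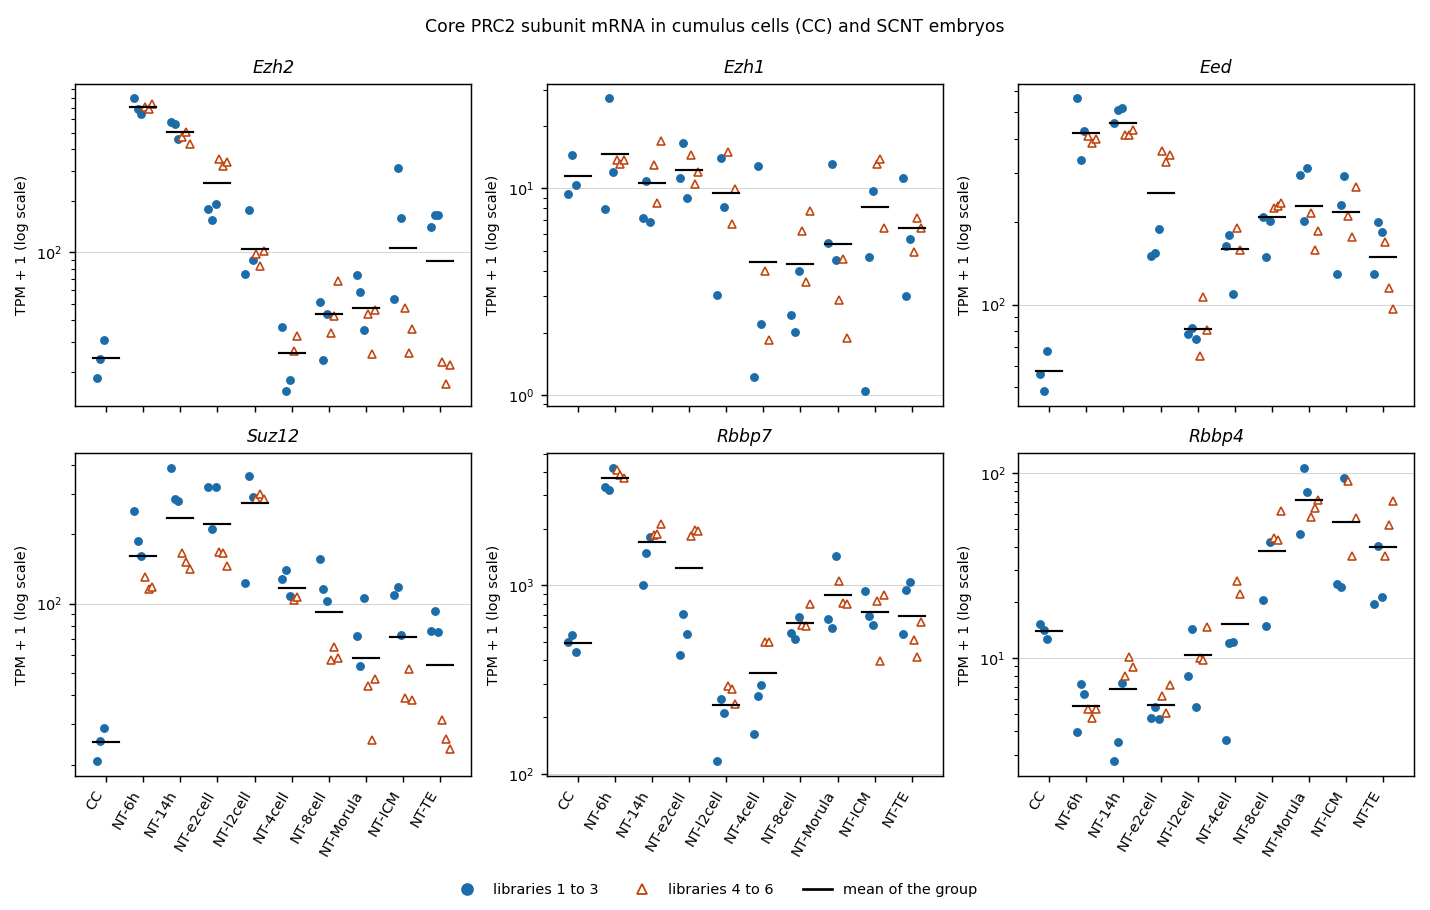
Levels of the 6 core PRC2 genes in CC and the 9 SCNT groups, as TPM + 1 on a log axis, with filled circles for libraries 1 to 3, open triangles for libraries 4 to 6 and a bar at the group mean. Ezh2 is at 17.3 to 29.5 TPM in CC and at 638 to 792 TPM at 6 hpa, and drops to 14.3 to 35.4 TPM at 4C, while Rbbp4 is lowest from 6 hpa to E2C and highest in morulae.

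Eed (chr7:89954654-89980976), the subunit that binds the methylated tail, showed 47.3, 55.1 and 67.1 TPM in CC against 334 to 561 TPM (median 403) at 6 hpa, a log2 difference of 2.86 ± 0.27 (limma adjusted p = 7.3e-14). At 14 hpa it was 413 to 517 TPM, its highest mean of any group. Eed then reached a trough at L2C, 63.9 to 105 TPM, against 149 to 360 TPM at E2C (−1.56 ± 0.22, limma adjusted p = 5.64e-08). The difference was −1.06 and −2.07 within libraries 1 to 3 and 4 to 6. The L2C range overlapped that of CC. From 4C to the blastocyst Eed lay between 95.6 and 314 TPM, and it was above CC in ICM (1.88, limma adjusted p = 4.81e-08) and in TE (1.34, limma adjusted p = 4.62e-05). The TE difference dropped under 2-fold, to 0.96 with quantile normalization and to 0.94 with the length trend removed.

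Suz12 (chr11:79993106-80034123), the scaffold, followed another course, with its highest mean over all libraries at L2C. In libraries 1 to 3 the highest mean was at 14 hpa (316 TPM, against 283 at E2C and 256 at L2C), and in libraries 4 to 6 it was at L2C (288 TPM). CC libraries held 19.8, 24.4 and 27.9 TPM, and the 6 hpa libraries held 115 to 252 TPM (median 145), a log2 difference of 2.64 ± 0.42 (limma adjusted p = 2.49e-07) with no overlap. Levels were 140 to 388 TPM at 14 hpa and 145 to 321 TPM at E2C. At L2C they were 122 to 356 TPM with a median of 285, where replicate 1 held the 122 and the other 5 held at least 282. The fall from L2C to 4C (103 to 140 TPM) was called at −1.16 ± 0.36 (limma adjusted p = 0.0072), became −0.59 (adjusted p = 0.260) with the length trend removed, and was −0.91 and −1.45 in libraries 1 to 3 and 4 to 6. Later consecutive stages gave no call for Suz12, with 55.9 to 155 TPM at 8C and 24.6 to 105 TPM in morulae.

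Suz12 was the gene in which the library numbers mattered most often. In 8 of the 9 SCNT groups every library of 1 to 3 lay above every library of 4 to 6, by 1.19 to 3.13 times in the means, and L2C was the exception. Such a split in either direction was seen in 28.1% of tested genes at 6 hpa, 51.8% at 14 hpa, 40.6% at E2C, 27.7% at L2C, 38.6% at 4C, 26% at 8C, 24.6% in morulae, 27.9% in ICM and 32.6% in TE. Within libraries 1 to 3, the difference of 6 hpa from CC was 2.99 (limma adjusted p = 1.87e-08). Suz12 was called higher in ICM than in CC (1.38, limma adjusted p = 0.0064), and without ICM libraries 1 to 3 the difference was 0.78 (adjusted p = 0.177). The part of the batch in these differences was not tested.

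The histone-binding pair differed in opposite directions between CC and 6 hpa. Rbbp7 (chrX:162760372-162779090) was the most abundant of the 10 transcripts per length in CC and in every SCNT stage except L2C by mean, with 445 to 547 TPM in CC and 3191 to 4200 TPM at 6 hpa (2.90 ± 0.36, limma adjusted p = 5.13e-10). Rbbp4 (chr4:129307100-129335370), whose product is nearly identical, held 11.6, 13.2 and 14.3 TPM in CC and 2.99 to 6.18 TPM at 6 hpa (−1.38 ± 0.48, limma adjusted p = 0.011). The groups did not overlap, as was so downward for 40.5% of all genes. The Rbbp4 difference was −0.91 with quantile normalization, under 2-fold, and −1.30 (adjusted p = 0.0510) in libraries 1 to 3 alone. The log2 ratio of Rbbp4 to Rbbp7 was −5.15 ± 0.12 (SD, n = 3) in CC and −9.43 ± 0.33 (SD, n = 6) at 6 hpa.

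Rbbp7 was lower after that. It fell from 6 hpa to 14 hpa, where 1006 to 2120 TPM were measured, by 1.17 ± 0.29 on the log2 scale (limma adjusted p = 0.0031), the single call of 9 genes in a comparison that called 11.2% of all genes (5.02% downward). That fold was just under 2 (−1.0) when libraries were rescaled to reference genes and in libraries 4 to 6 alone, and −0.60 (adjusted p = 0.0895) with quantile normalization. It fell again from E2C (424 to 1973 TPM) to L2C (116 to 293 TPM), by 2.21 ± 0.29 (limma adjusted p = 2.06e-08), with −1.59 and −2.83 in libraries 1 to 3 and 4 to 6. After L2C it stood at 521 to 797 TPM at 8C and 593 to 1428 TPM in morulae, without a call between consecutive stages.

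Rbbp4 was highest late. From 6 hpa to E2C it was at or under 9.16 TPM, and it ran from 4.45 to 13.6 TPM at L2C and from 2.62 to 25.0 TPM at 4C, and reached 13.8 to 61.1 TPM at 8C and 45.8 to 106 TPM in morulae. The rise from 4C to 8C was called at 1.44 ± 0.41 (limma adjusted p = 0.0078), and was 1.00 (adjusted p = 0.0836) without 4C library 1, the lowest. Rbbp4 was above CC in ICM (1.74, limma adjusted p = 0.0026) and in TE (1.37, limma adjusted p = 0.020). The TE call was lost without CC library 2, CC library 3 or TE library 6, with adjusted p from 0.0547 to 0.0755. In libraries 1 to 3 alone, the only numbers that CC has, the TE difference was 0.87 (limma adjusted p = 0.274). The ratio of Rbbp4 to Rbbp7 was −3.62 ± 0.63 (SD, n = 6, log2) in morulae. Rbbp4 and Rbbp7 differed between the library subsets, without overlap, in 3 of 9 groups each, and there the lower values belonged to libraries 1 to 3. Such a split in either direction was seen in 24.6 to 51.8% of tested genes, by group, so it is not particular to these genes.

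Both proteins also serve in other complexes, and the 13 genes listed for those complexes were compared between CC and 6 hpa. There 5 were higher at 6 hpa, among them Sin3a, the co-repressor scaffold (3.95 to 5.10 TPM in CC, 80.2 to 152 TPM at 6 hpa), and the NuRD subunit Gatad2b (5.85 to 13.5 and 54.9 to 123 TPM). Another 5 were lower, among them the deacetylase Hdac1 (16.4 to 30.3 and 0.177 to 2.31 TPM) and another NuRD subunit, Mta2 (4.52 to 9.10 and 0.0550 to 0.361 TPM). Over all genes 25.8% were called upward and 35.6% downward at this step, so calls in both directions are not read as a trait of these complexes. The median log2 fold change was 0.38 over the 13 genes and −0.28 over all genes.

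**Figure D2:**
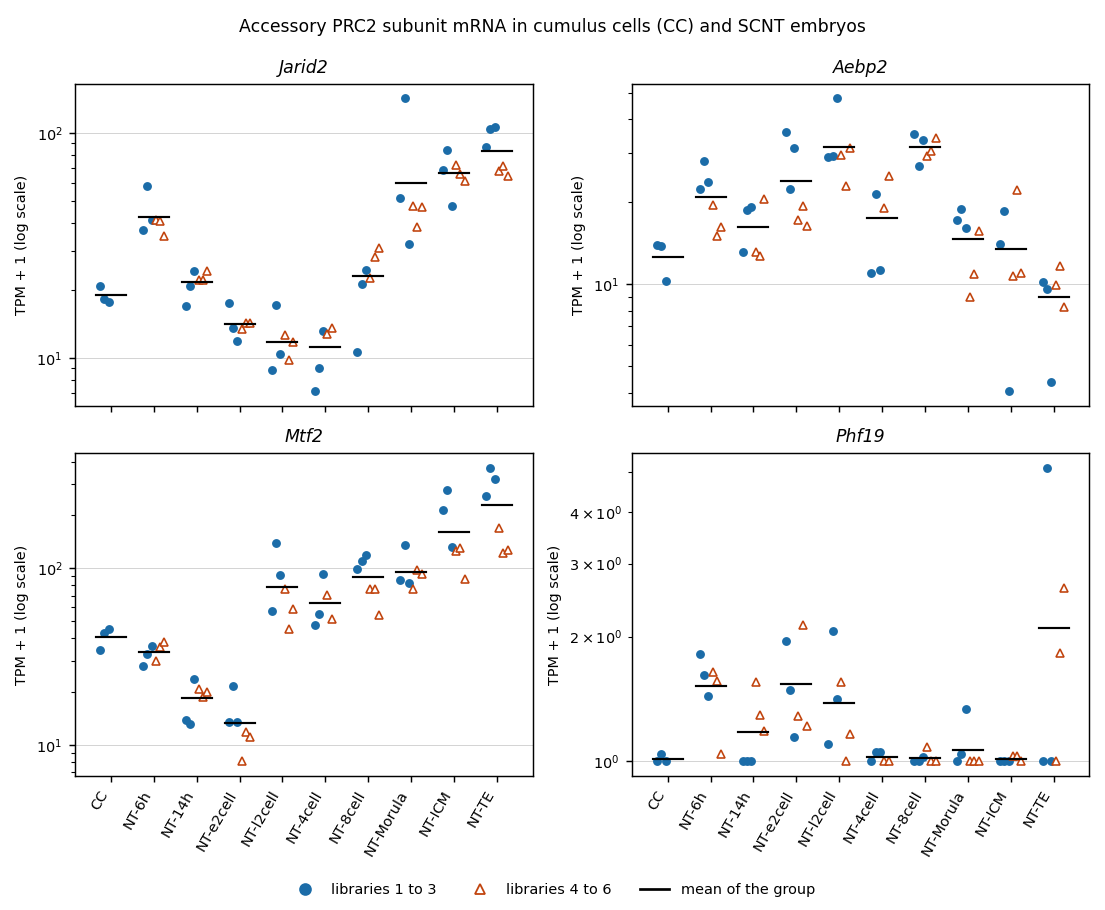
Levels of the 4 accessory genes in CC and the 9 SCNT groups, as TPM + 1 on a log axis, with filled circles for libraries 1 to 3, open triangles for libraries 4 to 6 and a bar at the group mean. Mtf2 dips to 7.10 to 20.6 TPM at E2C and then climbs to 121 to 369 TPM in TE, Jarid2 climbs from 4C onward, and Phf19 stays near 0.

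Jarid2 (chr13:44730774-44921643), which brings the complex to nucleosomes, dipped and then climbed. It was 16.8, 17.3 and 19.8 TPM in CC and 33.9 to 57.4 TPM at 6 hpa, without overlap (1.14 ± 0.31, limma adjusted p = 0.0014), and this difference was 0.82, under 2-fold, with the length trend removed. Levels were lowest at 4C, 6.10 to 12.6 TPM. The rise to 8C (9.65 to 30.0 TPM, 1.02 ± 0.27, limma adjusted p = 0.0041) sat at the edge of the 2-fold limit and was 0.58 (adjusted p = 0.106) after rescaling. It also dropped under 2-fold without 4C library 1 or 2 or without 8C library 3, 5 or 6, at 0.87 to 0.99.

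Morula levels of Jarid2 were 31.0 to 142 TPM (median 46.2), and the rise from 8C was called at 1.25 ± 0.26 (limma adjusted p = 0.00038). Without morula library 2, which held the 142, it was 0.96 and under 2-fold, still with an adjusted p of 0.0037. The difference was 1.80 in libraries 1 to 3, which hold it, and 0.70 in libraries 4 to 6. In the blastocyst Jarid2 showed 46.6 to 83.2 TPM in ICM and 63.6 to 105 TPM in TE, with differences from CC of 1.79 and 2.11 (limma adjusted p = 4.47e-06 and 1.55e-07).

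Aebp2 (chr6:140622663-140678472), the DNA-binding partner of JARID2 in that form, spanned 3.85-fold between its extreme means. It was 9.23 to 12.8 TPM in CC, 21.9 to 46.7 TPM at L2C and 26.1 to 34.4 TPM at 8C. The fall from 8C to morulae (7.96 to 17.8 TPM) was called, at −1.16 ± 0.29 (limma adjusted p = 0.0042). It was −0.88 (adjusted p = 0.248) in libraries 1 to 3 and −1.44 (adjusted p = 0.00052) in libraries 4 to 6. Jarid2 rose and Aebp2 fell at the same step, the only 2 of 9 genes called there, against 12.6% of all genes (9.05% upward, 3.53% downward).

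Mtf2 (chr5:108065674-108109219), a Polycomb-like protein that binds CG-rich DNA, showed a switch at L2C. Its level was 33.2 to 44.4 TPM in CC, 26.8 to 37.0 TPM at 6 hpa, 12.2 to 22.5 TPM at 14 hpa and 7.10 to 20.6 TPM at E2C. At L2C it was 44.2 to 138 TPM with a median of 66.8. Mtf2 rose from E2C by 2.52 ± 0.28 (limma adjusted p = 1.7e-10), with 2.51 and 2.53 in libraries 1 to 3 and 4 to 6. It was the only 1 of the 4 genes called at this step that rose, since Ezh2, Eed and Rbbp7 fell, and 34.7% of all genes were called (23.6% upward, 11.1% downward). After L2C the level stayed at or above 46.8 TPM and reached 85.5 to 274 TPM in ICM and 121 to 369 TPM in TE.

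Mtf2 in TE was above the morula level (74.9 to 135 TPM) by 1.15 ± 0.28 (limma adjusted p = 0.0012). This was the single call of 9 genes, in a comparison that called 22% of all genes (11% upward), and it was 0.98 without TE library 2, 1.66 in libraries 1 to 3 and 0.64 in libraries 4 to 6. Against CC the difference was 1.88 in ICM and 2.35 in TE (limma adjusted p = 8.58e-06 and 8.61e-08). Of the other Polycomb-like genes, Phf19 (chr2:34893755-34913976) was at most 1.13 TPM in CC and all SCNT stages but TE, where the highest library had 4.12 TPM. It did not reach the mean of 1 TPM asked of a tested gene in these 56 libraries, which is why 9 of 10 genes were tested.

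By comparison, the remaining steps gave few calls. At E2C against 14 hpa limma called 0 of 9, with 4 at an unadjusted p under 0.05 (Ezh2, Eed, Jarid2, Rbbp7), against 6% of all genes called and 18.2% at that unadjusted p, and in libraries 1 to 3 alone Ezh2, Eed and Rbbp7 passed, at −1.61, −1.60 and −1.34. At 4C against L2C 3 of 9 fell (Ezh1, Ezh2, Suz12) and none rose, against 26.5% of all genes called downward and 38.3% in either direction. At 8C against 4C 2 of 9 rose (Jarid2, Rbbp4), against 11.6% of all genes called upward and 20% in either direction. For ICM against morula limma called 0 of 9 (1 at an unadjusted p under 0.05, Mtf2), against 24% of all genes called and 36.9% at that unadjusted p. For TE against ICM it called 0 of 9 (1 at an unadjusted p under 0.05, Eed), against 5.79% of all genes called and 18.6% at that unadjusted p. Consecutive comparisons share the middle group, so they are not independent.

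Against CC, 6 of 9 genes were higher in ICM (Ezh2, Eed, Suz12, Jarid2, Mtf2, Rbbp4) and 4 of 9 in TE (Eed, Jarid2, Mtf2, Rbbp4), with none lower. Upward calls took 16.9% of all genes in ICM and 18.8% in TE, and calls in either direction 37.9 and 35.8%. Both comparisons share the CC libraries. The medians over the 9 genes were 1.56 and 1.26, and the medians over all genes were 0 and 0.06. From 14 hpa to L2C, across the onset of embryonic transcription, Ezh2, Eed and Rbbp7 fell (−2.32, −2.50 and −2.89) and Mtf2 rose (2.02), with limma adjusted p from 4.52e-14 to 1.86e-05, and 42.7% of all genes were called (28.9% upward, 13.7% downward). Each of those 4 kept its call within libraries 1 to 3 and within libraries 4 to 6.

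**Figure D3:**
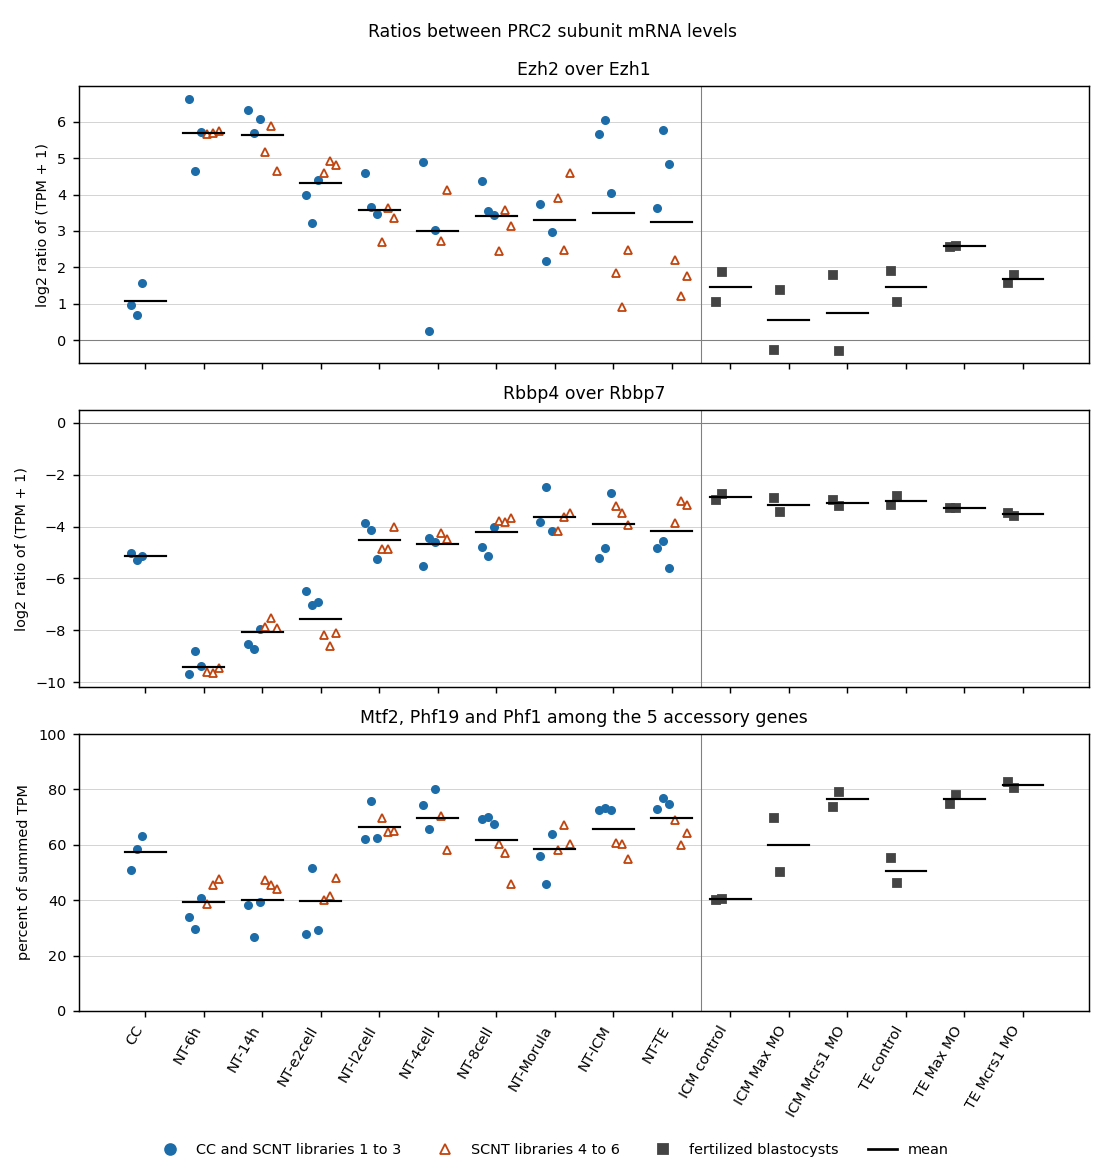
Ratios between alternative subunits by group: log2 Ezh2 over Ezh1, log2 Rbbp4 over Rbbp7 (both from TPM + 1), and the percentage of the summed TPM of Mtf2, Phf19, Phf1, Jarid2 and Aebp2 taken by the first 3, with 1 point per library and a bar at the mean. The first ratio peaks at 6 hpa (mean 5.69) and 14 hpa, the second is lowest at 6 hpa (mean −9.43), and the third steps up from E2C to L2C.

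The share of accessory transcripts that came from the Polycomb-like genes Mtf2, Phf19 and Phf1, rather than from Jarid2 and Aebp2, was taken from levels per length. It was 57.5 ± 6.3% in CC (SD, n = 3), 39.4 ± 6.9% at 6 hpa, 40.1 ± 7.5% at 14 hpa and 39.7 ± 9.6% at E2C (SD, n = 6 each). At L2C it was 66.6 ± 5.2%, and no L2C library (62.1 to 75.8%) reached the E2C range (27.8 to 51.6%). Later groups had means of 58.6 to 69.8%. The summed TPM of Ezh1, Ezh2, Eed and Suz12 had its median at 108 in CC, 1244 at 6 hpa, 762 at E2C, 465 at L2C and 289 to 341 from 4C to TE. Across the 10 group means the pairs most alike were Mtf2 with Rbbp4 (r = 0.84) and Eed with Rbbp7 (r = 0.82), and the least alike were Ezh1 with Rbbp4 (r = −0.72), over means that share libraries.

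Other genes of the pathway were taken from a list of 7 with a symbol in the tables. At 6 hpa 4 of the 7 were higher than in CC and 1 was lower, against 25.8% and 35.6% of all genes tested. The 7 count every listed gene with a symbol, whether or not it passed the filter on low values. AU022751, the symbol used for the PRC2 inhibitor EZHIP, was at most 0.0716 TPM in CC and 367 to 610 TPM at 6 hpa, stayed at 415 to 863 TPM at E2C, dropped to 6.49 to 155 TPM at L2C and was at most 30.4 TPM in any later SCNT library. Its fall from E2C to L2C was −4.46, the only call among the 7 genes there. AU022751 passed the filter through embryo libraries, so its call against CC is set in part by the filter. Kdm6b, a demethylase of the same mark, was 12.2 to 12.8 TPM in CC, 40.3 to 135 TPM at 6 hpa and 8.93 to 27.7 TPM at 14 hpa. The other demethylase Kdm6a and the Polycomb-like gene Phf1 were also higher at 6 hpa than in CC. Of the genes named for maternal H3K27me3 imprinting, 4 of 5 tested rose from E2C to L2C (Gab1, Jade1, Sfmbt2, Slc38a4), against 23.6% of all genes, for example Gab1 from 0.198 to 2.44 TPM to 4.66 to 9.88 TPM. The 6 imprinted genes of the list summed to a median of 2.56 TPM at E2C and 334 TPM in SCNT ICM. A gene low at E2C was thus tested through other stages, so this count is set in part by the filter and is not read as a result.

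In fertilized blastocysts, 4 of the 10 genes were lower after Max MO in ICM (Ezh2, Suz12, Jarid2, Aebp2) and 2 in TE (Suz12, Jarid2). After Mcrs1 MO, 3 were lower in ICM (Ezh2, Jarid2, Aebp2) and 1 in TE (Jarid2). None was called higher against control in any of the 4 comparisons. Among 11219 genes tested, downward calls took 15.1% for Max MO and 5.21% for Mcrs1 MO in ICM, and 1.45% and 3.31% in TE, with 23.7%, 10.1%, 2.5% and 5.08% in either direction. The MO groups of a lineage share their 2 control libraries, so the Max and Mcrs1 comparisons are not independent of each other.

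The targeted transcripts were read first. Max was 8.42 and 38.0 TPM in the ICM controls and 0.443 and 6.82 TPM after Max MO (−2.51 ± 0.80, limma adjusted p = 0.040), and in TE it was 28.5 to 34.5 and 8.68 to 16.3 TPM without a call. Mcrs1 was 253 to 310 TPM in ICM controls and 73.4 to 86.8 TPM after Mcrs1 MO (−1.80 ± 0.21, limma adjusted p = 0.0033), and 219 to 294 against 41.1 to 45.5 TPM in TE (−2.53 ± 0.21, limma adjusted p = 0.00087). Since an MO need not lower its transcript, these values do not measure protein loss.

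The control ICM libraries differed from each other in lineage markers. TE markers summed to 16260 TPM in control replicate 1 and 622 TPM in replicate 2, against 2770 and 5903 TPM after Max MO and 11622 and 8114 TPM after Mcrs1 MO, and the labelled TE libraries held 15179 to 21223 TPM. Primitive endoderm markers were 35.8 and 35 TPM in the controls, 264 and 78.6 TPM after Max MO and 86.2 and 81.3 TPM after Mcrs1 MO, and ICM markers were 768 and 898, 575 and 597, and 280 and 574 TPM in the same order. MO libraries also differed from controls by transcript length, with longer transcripts lower. The Spearman correlation of the log2 fold change with the longest annotated transcript was −0.45 and −0.37 for Max MO in ICM and TE and −0.31 and −0.40 for Mcrs1 MO, over 10791 genes, against −0.01 for TE against ICM in controls. Each called MO difference below is given also with that trend removed, an alternative chosen after seeing the data. Jarid2 (8353 bases, longer than 96.2% of tested genes), Aebp2 (5932 bases) and Suz12 (4373 bases) are long, and Ezh2 (2787 bases) is below the median. The part of length or lineage makeup in the MO differences was otherwise not tested.

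Suz12 was lower after Max MO in both lineages. The ICM controls held 90.4 and 97.4 TPM and the Max MO libraries 20.9 and 21.0 TPM, a log2 difference of −2.11 ± 0.24 (limma adjusted p = 0.00070). The groups did not overlap, as was so downward for 33.4% of all genes. The difference was −1.41 (adjusted p = 0.0054) with the length trend removed, and it stayed called without any 1 of the 4 libraries. In TE, controls at 103 and 89.0 TPM stood against 44.5 and 45.5 TPM (−1.07 ± 0.24, limma adjusted p = 0.044). That call was lost without any 1 of the 4 libraries (adjusted p from 0.102 to 0.235) and with the length trend removed (−0.62, adjusted p = 0.244). After Mcrs1 MO, Suz12 was 45.9 and 55.0 TPM in ICM (−0.89, limma adjusted p = 0.040, under 2-fold) and 44.6 and 57.3 TPM in TE (not called).

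Ezh2 was lower in ICM after both MOs. Controls held 70.4 and 85.3 TPM, Max MO libraries 15.5 and 37.9 TPM (−1.63 ± 0.38, limma adjusted p = 0.011) and Mcrs1 MO libraries 28.4 and 23.7 TPM (−1.54 ± 0.38, limma adjusted p = 0.029). With the length trend removed they were −1.47 (adjusted p = 0.032) and −1.53 (adjusted p = 0.041). The Max difference was −1.01 (adjusted p = 0.0725) without Max MO replicate 1, and the Mcrs1 call was lost without control replicate 2 or either Mcrs1 MO library (adjusted p from 0.0568 to 0.126). Array weights (adjusted p = 0.0922 and 0.187) and each lineage alone (0.0672 and 0.140) ended both calls, and testing all genes above 0 TPM ended the Mcrs1 call (0.0612). In TE, 50.7 and 38.5 TPM in controls stood against 30.5 to 34.1 TPM in the MO libraries, without a call. Ezh1 was not called in any of the 4 comparisons, with 33.6 and 22.6 TPM in ICM controls and 7.49 to 29.2 TPM in the ICM MO libraries.

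**Figure D4:**
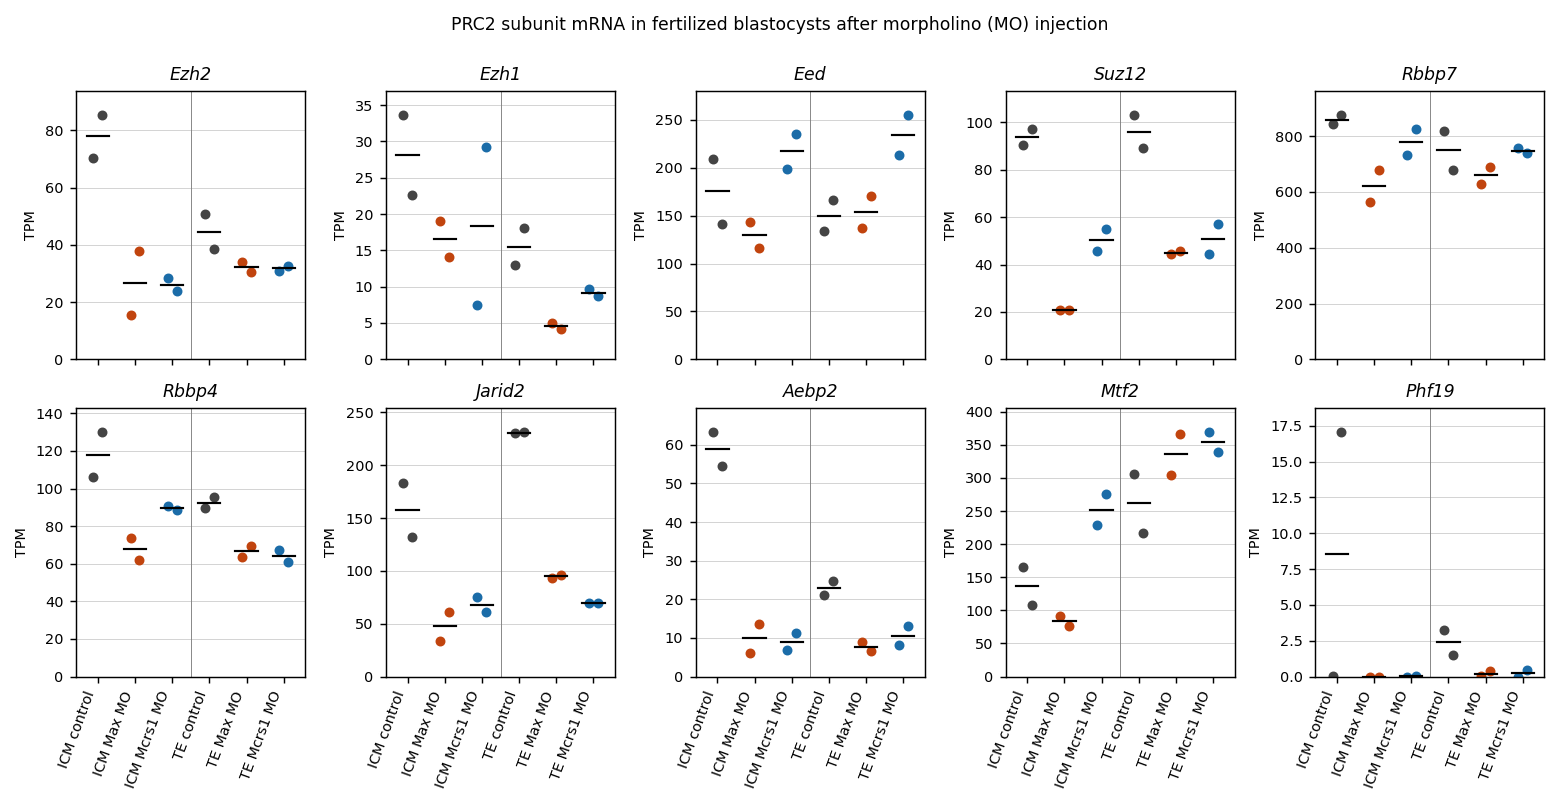
Levels of the 10 genes in fertilized ICM and TE after control, Max or Mcrs1 MO, in TPM on linear axes, with 1 point per library (n = 2 per group) and a bar at the mean. Suz12 is at 90.4 and 97.4 TPM in ICM controls and at 20.9 and 21.0 TPM after Max MO, and Jarid2 is lower than control in all 8 MO libraries.

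Jarid2 was the only 1 of the 10 genes called in all 4 comparisons, and it has the longest transcript of the 10. It was 183 and 132 TPM in ICM controls, 33.6 and 61.5 TPM after Max MO (−1.75 ± 0.29, limma adjusted p = 0.0023) and 75.0 and 61.0 TPM after Mcrs1 MO (−1.19 ± 0.29, limma adjusted p = 0.027). In TE it was 231 TPM in both controls, 93.6 and 96.6 TPM after Max MO (−1.27 ± 0.29, limma adjusted p = 0.044) and 69.5 TPM in both Mcrs1 MO libraries (−1.72 ± 0.29, limma adjusted p = 0.013). All 8 MO libraries lay below the control libraries of their lineage, a pattern that 33.4, 36.3, 26.4 and 40.3% of all genes showed in the single comparisons, in the order Max MO in ICM and TE and Mcrs1 MO in ICM and TE. With the length trend removed the 4 differences, in the order Max MO in ICM, Mcrs1 MO in ICM, Max MO in TE and Mcrs1 MO in TE, were −0.59, −0.50, −0.60 and −0.87, with adjusted p from 0.132 to 0.359, so no call remained. Leaving out any 1 library ended both TE calls, and the Mcrs1 ICM call was lost without control replicate 1 or either MO library. That ICM call was also lost with array weights (adjusted p = 0.166) and each lineage alone (0.146).

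Aebp2 had the largest fitted difference among the genes called. ICM controls held 63.3 and 54.5 TPM, Max MO libraries 6.19 and 13.5 TPM (−2.55 ± 0.46, limma adjusted p = 0.0034) and Mcrs1 MO libraries 6.75 and 11.3 TPM (−2.61 ± 0.46, limma adjusted p = 0.0092). The length trend left −1.59 (adjusted p = 0.046) and −2.10 (adjusted p = 0.025). The Mcrs1 call was lost without Mcrs1 MO replicate 1 (−2.28, adjusted p = 0.0806), and the Max call was kept without any 1 library. With array weights neither was called (adjusted p = 0.0515 for Max and 0.106 for Mcrs1), and with each lineage alone the Mcrs1 call was lost (adjusted p = 0.0815). In TE the values were 21.0 and 24.7 TPM in controls, 9.03 and 6.51 TPM after Max MO and 8.24 and 13 TPM after Mcrs1 MO. They lay below the controls, as was so for 36.3 and 40.3% of all genes, and were not called.

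Mtf2 was called against control in neither lineage. In ICM it was 166 and 108 TPM in controls, 91.3 and 75.6 TPM after Max MO and 229 and 275 TPM after Mcrs1 MO, where the difference from control was 0.90 (limma adjusted p = 0.043), under 2-fold, and 1.2 (adjusted p = 0.017) with the length trend removed. Without control replicate 1, the library with the TE markers, it was 1.21 (adjusted p = 0.0068), and without replicate 2 it was 0.60 (adjusted p = 0.123). In TE it was 306 and 217 TPM in controls and 305 to 369 TPM in the MO libraries, with no call. Directly compared in ICM, Max MO was below Mcrs1 MO for Mtf2 (−1.58 ± 0.25, limma adjusted p = 0.027) and Suz12 (−1.22 ± 0.24, limma adjusted p = 0.038), 2 of 10 genes against 1.81% of all genes (1.5% downward). Both calls were lost without any 1 of the 4 MO libraries (adjusted p from 0.0629 to 0.205) and with the length trend removed (adjusted p = 0.0565 and 0.138).

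Eed, Rbbp4 and Rbbp7 were not called in any of the 4 comparisons with control. Eed was 209 and 142 TPM in ICM controls, 143 and 116 TPM after Max MO and 199 and 235 TPM after Mcrs1 MO, with ranges that overlapped that of the controls. In TE it was 134 and 166 TPM in controls, 137 and 171 TPM after Max MO and 214 and 255 TPM after Mcrs1 MO (0.64, limma adjusted p = 0.136). Rbbp7 was 844 and 876 TPM in ICM controls and 564 to 825 TPM in the ICM MO libraries. Rbbp4, the gene with the E-box printed above, was 106 and 130 TPM in ICM controls, 73.7 and 61.8 TPM after Max MO and 91.0 and 88.8 TPM after Mcrs1 MO. It was lower in each library, as was so for 33.4 and 26.4% of all genes, but under 2-fold. In TE Rbbp4 was 89.7 and 95.3 TPM in controls, 63.6 and 69.6 TPM after Max MO (−0.47, limma adjusted p = 0.253) and 67.1 and 60.9 TPM after Mcrs1 MO (−0.53, limma adjusted p = 0.162). Phf19 was 0.021 and 17.0 TPM in the ICM controls and at most 0.059 TPM in the ICM MO libraries, so its control mean rested on replicate 2 alone.

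**Figure D5:**
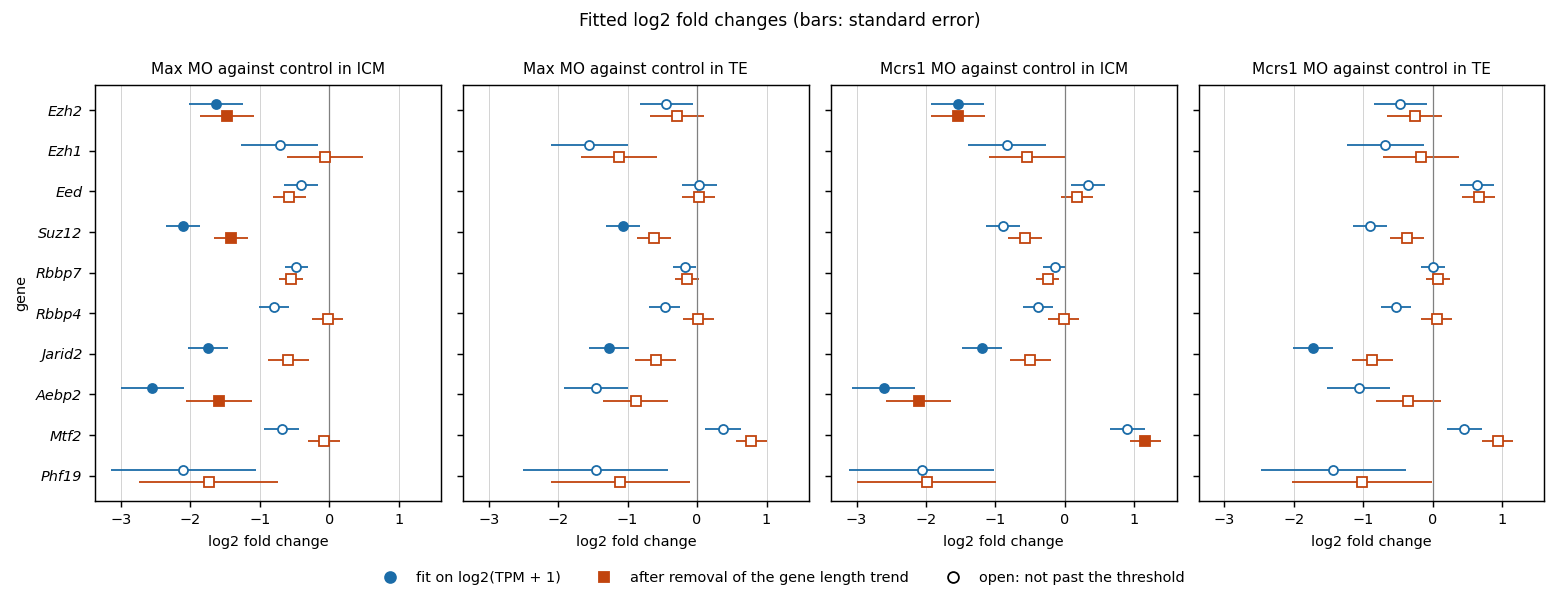
Fitted log2 fold changes of the 10 genes for each MO against control in ICM and TE, with bars of 1 SE, as circles for the values as reported and squares after removing the trend over transcript length. Filled symbols passed the threshold. Suz12, Ezh2 and Aebp2 keep filled squares for Max MO in ICM, and Jarid2 has none in any comparison.

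Whether the response differed between lineages was tested directly. For both MOs, limma called 0 of the 10 genes for TE minus ICM, and 0 of all 11219 genes, while at an unadjusted p under 0.05 there were 2 of the 10 for Max MO (Suz12 and Mtf2, at 1.04 ± 0.35 and 1.06 ± 0.36, adjusted p = 0.268 and 0.273) and 1 for Mcrs1 MO (Aebp2), against 13.1 and 8.66% of all genes at that p. Between the MOs in TE, limma called 0 of 10 genes (1 at an unadjusted p under 0.05, Eed) against 0.0267% of all genes called and 5.5% at that p. Between TE and ICM in controls it called 0 of 10 (2 at an unadjusted p under 0.05, Aebp2 and Mtf2), against 2.92% of all genes called and 22% at that p. The median log2 fold change over the 10 genes was −1.21 and −0.86 for Max and Mcrs1 MO in ICM and −0.77 and −0.60 in TE, against −0.21, −0.05, −0.19 and −0.24 over all genes. These medians count Phf19, which stayed below 1 TPM in every Max and Mcrs1 MO library. It passed the filter through the controls, so its fall is set in part by the filter. Leaving Phf19 out, the middle gene stood at −0.79 and −0.84 in ICM and at −0.47 and −0.53 in TE. The share of accessory TPM from Mtf2, Phf19 and Phf1 was 40.2 and 40.3% in the ICM controls. After MO in ICM it was 50.2 and 69.6% for Max and 73.7 and 79.2% for Mcrs1. In TE it was 46.1 and 55.1% in controls and 74.8 to 82.6% in the MO libraries. Jarid2 and Aebp2 were below control in the MO libraries of both lineages, and mean Mtf2 differed too. Mtf2 means were 137, 83.4 and 252 TPM in ICM for control, Max MO and Mcrs1 MO, and 261, 336 and 354 TPM in TE. The shares compare levels per length and carry the same length trend.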

How the data were processed

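Smart-seq2 libraries of 3 CC, 53 SCNT and 12 fertilized MO samples were analysed from the gene tables that the authors deposited. Per the submitters' processing notes and the study's methods, reads were trimmed with cutadapt 1.16, aligned to mm10 with HISAT2 and quantified with StringTie, whose deposited columns give coverage, FPKM and TPM per gene entry, including transcripts assembled in each library. The notes also name Cufflinks and deepTools. The deposited coverage and FPKM were used only to estimate the aligned bases of a library (1.00 to 5.17 gigabases, which limits the precision of low values), and the deposited TPM were summed per symbol. The tables hold no read counts, so no count test and no counting interval was computed. Libraries were sequenced by 2 providers, and no label says which library went to which.

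Genes with a mean of at least 1 TPM were tested on log2(TPM + 1) with limma 3.58.1 (R 4.3.3, empirical Bayes with trend, Benjamini-Hochberg adjustment over all genes tested), separately for the 56 CC and SCNT libraries (12084 genes, 13 comparisons) and the 12 MO libraries (11219 genes, 9 comparisons). A call needs an adjusted p under 0.05 and at least 2-fold. The members and gene lists were chosen with earlier results of these data known. All members were named, and of another list at most 4 genes per comparison, those called with the largest change. Profile likeness was the Pearson correlation over the 10 group means of log2(TPM + 1), with the 3 most alike genes given for Ezh1 and Ezh2. Tables were made with Python 3.11.15 (numpy 2.4.6, pandas 2.3.3, scipy 1.17.1, matplotlib 3.10.9), and the test was tested on simulated data.

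The alternatives were a pseudocount of 0.1, a minimum of 5 TPM or any value above 0, the largest entry per symbol, the SCNT groups without CC, rescaling to reference genes, quantile normalization, array weights, a replicate block, only the groups compared, each lineage alone, libraries 1 to 3 or 4 to 6, and each library left out. Removing a loess trend over transcript length (span 0.3) and leaving out SCNT ICM libraries 1 to 3 were added after seeing the data. Same-numbered libraries deviated together (r over 0.1) in all 6 pairs for 14 hpa with 6 hpa (r from 0.14 to 0.39) and for TE with ICM of SCNT blastocysts (0.13 to 0.30). No other comparison of at least 3 pairs had this in all pairs, but 5 of 6 pairs did for E2C with 14 hpa, L2C with E2C and L2C with 14 hpa. For 14 hpa with 6 hpa and for TE with ICM, only 2 of 6 libraries correlated best with their own number, so the numbers in the labels do not establish pairs. The blocked fit changed no call of the 10 genes in either.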

Additional observations from a re-analysis of the deposited data

Results flagged for a closer look

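A library was singled out where its gap to the nearest library of its group passed Dixon's 95% critical value for the group's size. Of 90 groups of 5 or 6 libraries, 10 held such a value, and chance alone gives about 1 in 20 groups. At L2C, replicate 2 was high for Ezh2 (175 TPM, the others 73.3 to 101 TPM), and replicate 1 was low for Suz12 (122 TPM, the others 282 to 356 TPM) and for Rbbp7 (116 TPM, the others 209 to 293 TPM). At 8C, replicate 2 was low for Eed (147 TPM, the others 200 to 232 TPM) and replicate 1 was low for Jarid2 (9.65 TPM, the others 20.4 to 30.0 TPM). Jarid2 was also high in replicate 2 at 6 hpa (57.4 TPM, the others 33.9 to 40.2 TPM) and in morula replicate 2 (142 TPM, the others 31.0 to 50.5 TPM). Aebp2 was low in SCNT TE replicate 3 (3.38 TPM, the others 7.22 to 10.7 TPM). Phf19 was singled out at 8C in replicate 4 (0.0837 TPM) and in morula replicate 3 (0.336 TPM), both levels under 1 TPM where the other libraries were at or near 0.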

How the results depend on the processing

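Of 45 calls of the 10 genes, 19 were kept under every alternative run and 29 without any 1 library, and no log2 fold change of a call reversed. Of 253 counts of called genes over all genes and alternatives, 43 differed by over 1.5 times from the count as reported. Number of the 10 genes called, where it moved by over 1.5 times (the cause was not tested): for 14 hpa against 6 hpa 1 became 0 with rescaling, with quantile normalization and in libraries 4 to 6. For E2C against 14 hpa 0 became 1 with only the groups compared, 3 in libraries 1 to 3 and 1 with the length trend removed. For 4C against L2C 3 became 5 in libraries 4 to 6. For 8C against 4C 2 became 1 with rescaling, quantile normalization, only the groups compared and libraries 1 to 3. For morula against 8C 2 became 1 with quantile normalization, array weights and in either library subset. For SCNT ICM against morula 0 became 1 with array weights, 2 in libraries 1 to 3 and 1 in libraries 4 to 6, and for SCNT TE against morula 1 became 2 in libraries 1 to 3 and with the length trend removed. For Max MO in ICM 4 became 2 with array weights. For Max MO in TE 2 became 1 with a pseudocount of 0.1, all genes above 0 or quantile normalization, 0 with the replicate block or the length trend removed, and 4 with each lineage alone. For Mcrs1 MO in ICM 3 became 1 with all genes above 0 and 0 with array weights or each lineage alone. For Mcrs1 MO in TE 1 became 0 with the length trend removed, and for Max against Mcrs1 MO in ICM 2 became 0 with quantile normalization, each lineage alone or the length trend removed.

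Leaving out each library in turn, the number of genes called ran from 6 to 6 for 6 hpa against CC, 1 to 1 for 14 hpa, 0 to 1 for E2C, 4 to 5 for L2C, 2 to 4 for 4C, 0 to 4 for 8C, 1 to 3 for the morula, 0 to 0 for ICM against morula, 0 to 2 for TE against morula, 0 to 0 for TE against ICM, 5 to 6 for ICM against CC, 3 to 6 for TE against CC and 4 to 5 for L2C against 14 hpa. It ran from 3 to 5 for Max MO in ICM, 0 to 0 for Max MO in TE, 0 to 4 for Mcrs1 MO in ICM, 0 to 0 for Mcrs1 MO in TE and for both comparisons of the MOs with each other, 0 to 2 for TE against ICM in controls and 0 to 1 for the lineage difference of Max MO.

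The replicate block added Rbbp4 for morula against 8C (2 to 3 genes) and Ezh2 and Suz12 for TE against CC (4 to 6). It removed Jarid2 and Suz12 for Max MO in TE (2 to 0). It changed no other call. The libraries of these comparisons share only a number. Over the comparisons with at least 3 pairs, at most 3 of 5 libraries correlated best with their own number.

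Rescaling to reference genes moved the median log2 fold change of all genes from 0.26 to 0.52 for L2C against E2C, from −0.33 to −0.56 for 4C, from 0.03 to −0.20 for 8C, from −0.28 to −0.15 for 6 hpa, from −0.21 to −0.32 for Max MO in ICM and from −0.05 to −0.16 for Mcrs1 MO in ICM. The share of calls that were upward went from 68 to 79.2%, 30.7 to 22.5%, 58.0 to 32.1%, 42.0 to 45.2%, 36.5 to 29.1% and 48.4 to 38.5% in the same order, and for 14 hpa from 55.1 to 66.8%. On that scale the log2 ratio between highest and lowest group mean went from 4.87 to 5.08 for Ezh2, 2.99 to 3.37 for Eed, 3.45 to 4.10 for Suz12, 2.90 to 2.44 for Jarid2 and 4.01 to 3.56 for Rbbp7. With a pseudocount of 0.1, log2 Ezh2 over Ezh1 in TE after Max MO went from 2.58 to 2.79 and log2 Rbbp4 over Rbbp7 from −3.29 to −3.31. The largest shifts of a mean log2 Ezh2 over Ezh1 were at 4C (3.01 to 3.77), in SCNT ICM (3.50 to 4.10), at 8C (3.42 to 3.84) and in morulae (3.31 to 3.69), each within the SD of the libraries. The limits are 2 libraries per MO group, levels that are shares of a changing pool, library subsets that stand apart, and a depth known only as aligned bases.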

Other observations

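Among the 6 other genes of the pathway tested in the MO libraries, the H3K27 demethylase Kdm6b was lower in all 4 comparisons with control, in which 15.1, 1.45, 5.21 and 3.31% of all genes were called downward (Max MO in ICM and TE, Mcrs1 MO in ICM and TE), and none of the 6 was higher. Its controls held 39.8 and 47.3 TPM in ICM and 37.9 and 47.9 TPM in TE, and the 8 MO libraries held 4.62 to 12.4 TPM, with log2 fold changes of −1.90 and −1.80 for Max MO in ICM and TE and −1.84 and −2.90 for Mcrs1 MO (limma adjusted p from 0.0040 to 0.032). With the trend over transcript length removed, the last was −2.13 (adjusted p = 0.011) and the other 3 were −0.86, −1.19 and −1.26 without a call. Kdm6a, the other demethylase, was 28.9 to 58.5 TPM in ICM controls and 6.18 to 6.96 TPM after Max MO (−2.48, limma adjusted p = 0.0062), and −1.52 (adjusted p = 0.0766) with the length trend removed.

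Of the 13 genes of other complexes with RBBP4 or RBBP7, 4 were lower after Max MO in ICM (Gatad2a, Sin3a, Chd4, Mta2), against 15.1% of all genes. After Mcrs1 MO, Hat1 was higher in both lineages, at 971 to 1115 TPM against 484 to 486 TPM in ICM and 1125 to 1157 TPM against 463 to 478 TPM in TE (limma adjusted p = 0.0044 and 0.0041, with 4.88 and 1.77% of all genes called upward), while Gatad2b was lower in ICM and Gatad2a in TE. With the length trend removed the Hat1 differences were 0.90 in ICM, under 2-fold (adjusted p = 0.011), and 1.24 in TE (adjusted p = 0.0030). Of 5 genes named for maternal H3K27me3 imprinting, 2 were lower after Max MO in ICM (Gab1, Sfmbt2; 15.1% of all genes) and 1 after Mcrs1 MO in TE (Slc38a4; 3.31% of all genes), the last −0.81 with adjusted p = 0.180 once the length trend was removed. Of the downward calls in this paragraph, the length trend left 1, Gatad2a after Max MO in ICM (−1.0, adjusted p = 0.022). All 5 imprinted genes tested were higher in SCNT TE than in CC, against 18.8% of all genes, with Slc38a4, a placental amino acid transporter, at 146 to 232 TPM against 0.279 to 2.5 TPM. The 6 imprinted genes of the list summed to 11.9 to 12.9 TPM in CC and 203 to 330 TPM in SCNT TE. A gene low in CC was thus tested through the later stages, so this count is set in part by the filter and is not read as a result.

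Of 18 PRC2 target genes of stem cells, 1 in the SCNT libraries and 3 in the MO libraries passed the filter on low values. Gata4, an endoderm regulator that also stands in the primitive endoderm markers, was at 0 and 0.0808 TPM in ICM controls, 2.52 to 26.1 TPM after Max MO and 6.99 to 14.7 TPM after Mcrs1 MO. It passed the filter through these MO libraries, so no test is given. The other target genes tested were not called, and the part of lineage makeup in the Gata4 values was not tested.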
